A study of Mus musculus with 6 samples.

Results

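Fibroblasts of the inflamed gut carry molecules that T cells can read, and 9 of them were followed here in stromal cells sorted from mouse large intestine. They were chosen by gene symbol as 3 functional sets: the checkpoint genes Cd274, Pdcd1lg2 and Ido1, the costimulation genes Cd40, Cd80, Cd86 and Icosl, and the adhesion genes Icam1 and Vcam1. All 9 were found among the 24346 genes of the expression tables. The tested animals were 3 mice of genotype Pdgfra cre; Il10ra flox/flox (numbers 13, 23 and 25), called Pdgfra-cre below, in which cre recombinase is expressed from Pdgfra, a gene of fibroblasts. The controls were 3 Il10ra flox/flox mice without cre (numbers 8, 9 and 43), called floxed controls. All 6 mice, at an age of 12 weeks, were treated with 1% DSS (dextran sulfate sodium), which injures the colonic epithelium and causes colitis, so no uninjured colon was compared. The sorted cells were live and Podoplanin-positive without CD45, CD31 or EpCAM, the surface marks of leukocytes, endothelium and epithelium, and each mouse gave 1 RNA-seq library. Podoplanin does not select for Pdgfra, so cells outside the reach of the cre can be present.

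A T cell that meets antigen also receives signals through paired surface molecules. CD80 and CD86 engage CD28 to costimulate or CTLA-4 to restrain, ICOS ligand engages ICOS, and CD40 on the presenting cell receives CD40 ligand from the T cell. PD-L1 (Cd274) and PD-L2 (Pdcd1lg2) engage PD-1 and dampen the T cell, while the enzyme IDO1 breaks down tryptophan, on which T cells depend. ICAM-1 and VCAM-1 hold leukocytes through the integrins LFA-1 and VLA-4. In stromal cells several of these genes are known to be induced by interferon gamma or by NF-kB signaling.

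The deposited unit was FPKM, the number of fragments scaled to transcript length and to library size, which corrects for gene length and so allows levels of different genes to be compared. Between 11188 and 11358 genes per library had an FPKM of at least 1. Low values put 1 fragment per kilobase at roughly 0.114 to 0.134 FPKM, so that depth was similar in the 6 libraries. Il10ra was listed at 0 in all 3 Pdgfra-cre libraries and in floxed controls 8 and 9, and at 0.418 FPKM in floxed control 43, so its loss could not be read from these values. The cells carried fibroblast transcripts. The summed FPKM of 10 fibroblast markers was 19957 to 20525 in Pdgfra-cre libraries and 16619 to 19970.1 in floxed controls. Dcn, the most abundant, was 8626 to 11261 FPKM and weighs most in the sum. In Pdgfra-cre 8 of the 10 had a higher mean and 2 a lower one, and none passed the adjusted threshold used below. Pdgfra was 1 of the lower 2, at 155, 120.5 and 174 FPKM in Pdgfra-cre libraries 13, 23 and 25, against 178, 186 and 199.9 FPKM in floxed controls 8, 9 and 43. Pdgfra-cre library 23 correlated least with the rest (mean r of 0.950, and 0.960 to 0.970 for the other 5). It also had the highest neutrophil gene S100a8, at 94.7 FPKM. S100a8 was 9.42 and 6.90 FPKM in Pdgfra-cre libraries 13 and 25, and 0 to 6.84 FPKM in floxed controls. The main results are given with and without it.

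The 9 genes spanned a wide range of levels in these cells. Icam1 was the most abundant, with a mean of 391 FPKM over the 6 libraries, above 99.2% of all genes, and Vcam1 followed at 169.9 FPKM, above 97.8%. Icosl averaged 21.5 FPKM, Cd274 8.25 FPKM and Cd40 7.04 FPKM. Cd86 and Cd80 averaged 0.539 and 0.445 FPKM, and Ido1 and Pdcd1lg2 0.0903 and 0.0307 FPKM. Icam1 exceeded Vcam1 in 6 of 6 libraries, Vcam1 exceeded Icosl in 6 of 6 and Cd40 exceeded Cd86 in 6 of 6, in each case without overlap of the ranges. Icosl and Cd274 were separate in floxed controls but overlapped in Pdgfra-cre, where Cd274 was above Icosl in library 23. Cd274 and Cd40 overlapped in Pdgfra-cre. In floxed controls Cd40 lay above Cd274 without overlap, at 5.06 to 7.15 against 3.51 to 4.88 FPKM. Cd274 exceeded Cd40 in 2 of 6 libraries, Pdgfra-cre 13 and 23, so its higher mean does not hold in every library. Cd86 and Cd80 overlapped in both groups, as did Cd80 and Ido1, and Ido1 and Pdcd1lg2. The order within these 3 pairs is not larger than the spread between libraries.

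**Figure D1:**
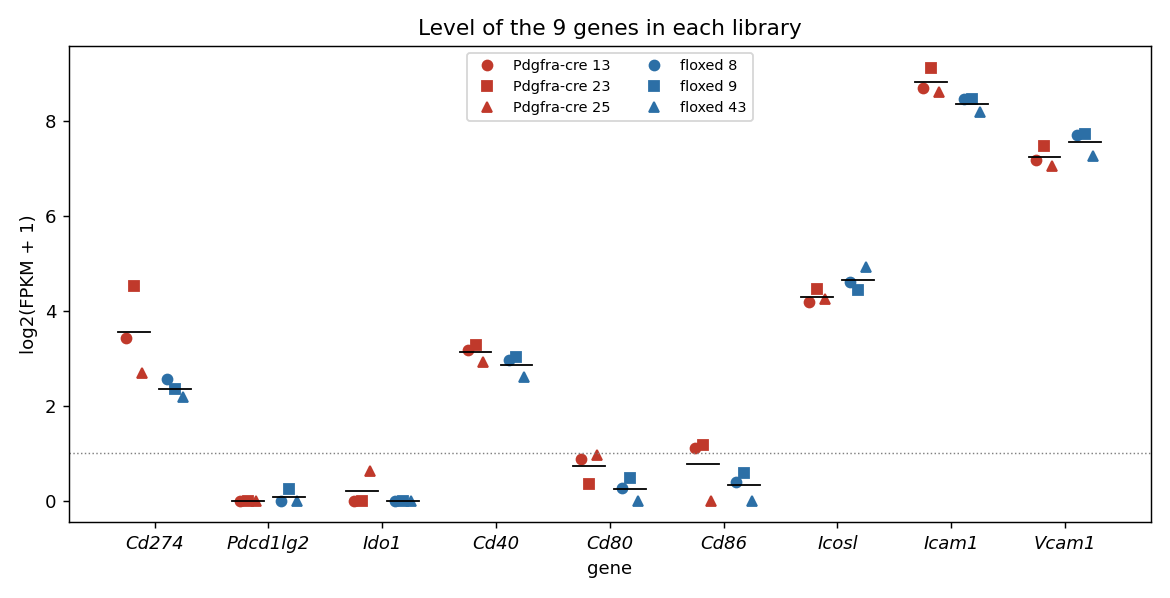
Level of each of the 9 genes as log2(FPKM + 1) in 3 Pdgfra-cre libraries (red) and 3 floxed control libraries (blue), with 1 symbol per library, the group mean as a black line and an FPKM of 1 as a dotted line. Icam1 and Vcam1 lie highest, Icosl, Cd274 and Cd40 are intermediate, and the other 4 genes stay near the dotted line or at 0.

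Between genotypes, the tables were compared with limma on log2(FPKM + 1) over the 11429 genes that reached 1 FPKM in 3 or more libraries. Of the 9 genes, 5 met this filter, each with an FPKM of at least 1 in all 6 libraries, and 4 (Pdcd1lg2, Ido1, Cd80 and Cd86) did not. After Benjamini-Hochberg adjustment over all genes, 0 of the 5 passed a threshold of 0.05, as did 0% of all genes tested with limma. At an unadjusted p under 0.05, 2 of the 5 (Cd274 and Icam1) were higher in Pdgfra-cre, where 5.47% of all genes were, and 0 of the 5 were lower, where 5.49% of all genes were. In the same 2 genes every Pdgfra-cre library lay above every floxed control, as in 8.07% of all genes, and in 0 of the 5 did every Pdgfra-cre library lie below, as in 8.29%. The 5 log2 fold changes had a median of 0.27, against 0.0012 for all genes tested, with 3 above 0 and 2 below.

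**Figure D2:**
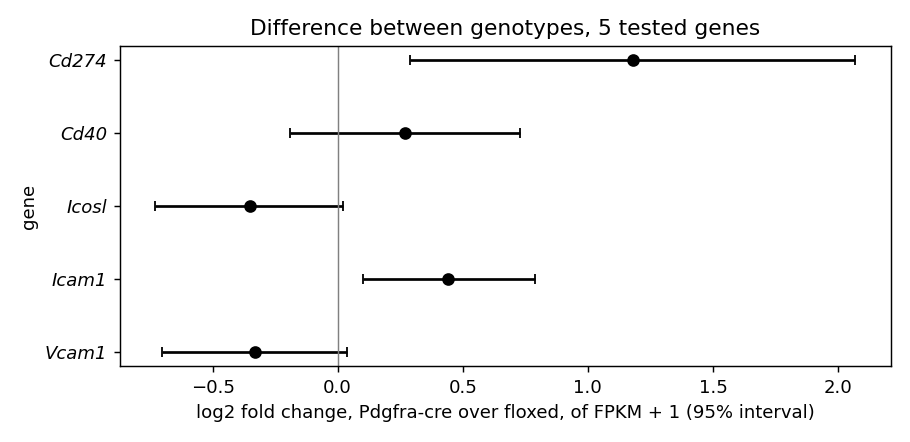
Log2 fold change of FPKM + 1, Pdgfra-cre over floxed control, for the 5 tested genes, with points for the limma estimate and bars for its unadjusted 95% interval (3 libraries per group). The intervals of Cd274 (0.29 to 2.07) and Icam1 (0.10 to 0.79) lie above 0, and those of Cd40, Icosl and Vcam1 include 0.

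Cd274, which encodes the checkpoint ligand PD-L1, had the largest log2 fold change of the 5 tested genes. It was 9.81, 21.8 and 5.43 FPKM in Pdgfra-cre libraries 13, 23 and 25, against 4.88, 4.10 and 3.51 FPKM in floxed controls 8, 9 and 43. The groups did not overlap, but Pdgfra-cre library 25 stood only slightly above floxed control 8. The means were 12.3 ± 8.46 FPKM in Pdgfra-cre and 4.16 ± 0.687 FPKM in floxed controls (SD, n = 3 each). The log2 fold change was 1.18 ± 0.39 (SE; limma adjusted p = 0.296), and 0.927% of all tested genes had a larger one. Without Pdgfra-cre library 23 it was 0.70 (adjusted p = 0.483), and without Pdgfra-cre library 25 it was 1.61 (adjusted p = 0.0948). In RNA from bulk samples, fewer cells of a type and less RNA per cell cannot be told apart, here or below.

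Pdcd1lg2, which encodes the second PD-1 ligand PD-L2, was listed at 0 in all 3 Pdgfra-cre libraries and in floxed controls 8 and 43, and at 0.184 FPKM in floxed control 9. By the rough depth estimate that value stood for about 2.38 fragments, under the 3 fragments taken as the limit of detection. The gene lies beside Cd274 on chromosome 19 (mm10): Cd274 runs from 29367455 to 29388095 and Pdcd1lg2 from 29410919 to 29471161, both on the plus strand, with 22.8 kb between them. PD-1 ligand transcript in these cells was thus almost all Cd274, in both genotypes. The planned test of the ratio of the 2 genes is left out here. With Pdcd1lg2 at 0 in 5 of 6 libraries, that ratio repeats the Cd274 level on a scale set by the pseudocount.

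The start regions of the pair are shown because the neighbours differ so much in level. Promoters were matched for 5 of the 9 genes. Both shown here are RefSeq promoters of build GRCm38.p6 on the plus strand, 250 bases before to 50 after the start: chr19:29367188-29367487 for Cd274 and chr19:29410669-29410968 for Pdcd1lg2. Capitals mark matches to motifs searched on both strands. These were the interferon-stimulated response element, which is GAAA and again GAAA with any 2 bases between, the shorter core AANNGAAA of interferon regulatory factors, which the response element contains, and the NF-kB consensus.
Cd274: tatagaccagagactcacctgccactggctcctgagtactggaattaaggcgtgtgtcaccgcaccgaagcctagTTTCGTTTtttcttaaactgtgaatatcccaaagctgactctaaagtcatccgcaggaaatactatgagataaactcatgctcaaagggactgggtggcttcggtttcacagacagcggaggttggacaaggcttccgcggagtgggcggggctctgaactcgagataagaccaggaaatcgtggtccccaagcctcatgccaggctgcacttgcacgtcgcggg
Pdcd1lg2: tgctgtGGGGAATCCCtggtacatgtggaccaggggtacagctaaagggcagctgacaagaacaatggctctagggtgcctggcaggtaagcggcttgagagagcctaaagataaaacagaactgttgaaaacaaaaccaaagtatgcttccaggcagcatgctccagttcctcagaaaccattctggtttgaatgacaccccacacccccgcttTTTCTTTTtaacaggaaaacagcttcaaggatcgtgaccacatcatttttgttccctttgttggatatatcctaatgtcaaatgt
The capitals in Cd274 are 1 match to the interferon regulatory factor core on the minus strand, from 175 to 168 bases before the start. Pdcd1lg2 has a core match of the same kind from 35 to 28 bases before the start, and an NF-kB match from 244 to 235 bases before it. The core occurs in 23.9% of all 32851 promoters in the table and the NF-kB consensus in 8.46%. The full response element, present in 3.44%, had no match in either window. A match is a description of letters and not of binding.

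Ido1, the interferon-inducible enzyme that starts tryptophan breakdown, was listed at 0 in Pdgfra-cre libraries 13 and 23 and in all 3 floxed controls. It was 0.542 FPKM in Pdgfra-cre library 25, or roughly 7.87 fragments (two-sided exact permutation p = 1). The library with Ido1 was the one of the Pdgfra-cre group with the lowest Cd274.

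Of the costimulation genes, Icosl was the most abundant. This ligand of ICOS was 17.1, 21 and 18 FPKM in Pdgfra-cre libraries 13, 23 and 25, against 23.3, 20.6 and 29.1 FPKM in floxed controls 8, 9 and 43. The groups overlapped by 1 library on each side, Pdgfra-cre library 23 and floxed control 9. The means were 18.7 ± 2.03 FPKM in Pdgfra-cre and 24.3 ± 4.33 FPKM in floxed controls (SD, n = 3 each). The difference, a log2 fold change of -0.35 ± 0.17 (SE), missed the threshold (limma adjusted p = 0.492), with a 95% interval from -0.73 to 0.022. Without floxed control 43 it was -0.22, and without Pdgfra-cre library 23 it was -0.44.

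Cd40, the receptor through which T cells stimulate presenting cells, was 8.06, 8.64 and 6.61 FPKM in Pdgfra-cre libraries 13, 23 and 25, against 6.73, 7.15 and 5.06 FPKM in floxed controls 8, 9 and 43. Pdgfra-cre library 25 lay among the controls. The means were 7.77 ± 1.04 FPKM in Pdgfra-cre and 6.32 ± 1.11 FPKM in floxed controls (SD, n = 3 each), and the log2 fold change was 0.27 ± 0.20 (SE; limma adjusted p = 0.71). Its 95% interval ran from -0.19 to 0.73. The log2 fold change was 0.14 without floxed control 43 and 0.2 without Pdgfra-cre library 23.

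The B7 genes Cd80 and Cd86, the CD28 ligands of professional antigen-presenting cells, were expressed at low levels. Cd80 was 0.844, 0.276 and 0.943 FPKM in Pdgfra-cre libraries 13, 23 and 25, against 0.210, 0.395 and 0 FPKM in floxed controls 8, 9 and 43. Cd86 was 1.17, 1.24 and 0 FPKM in Pdgfra-cre libraries, against 0.314, 0.506 and 0 FPKM in floxed controls, in the same order. For each gene 2 of 3 Pdgfra-cre libraries lay above every control and the groups overlapped, but the library that did not stand out was library 23 for Cd80 and library 25 for Cd86. The highest values stood for roughly 26.2 fragments of Cd80 and 27.1 of Cd86. The exact permutation p, two-sided, was 0.2 for Cd80 and 0.4 for Cd86.

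Antigen-presenting cells are known to carry Cd80 and Cd86, and leukocyte markers were measured beside them. Ptprc, the CD45 gene, ranged over 0 to 1.04 FPKM, highest in Pdgfra-cre library 23. Of 12 dendritic cell and macrophage markers, 7 were under 1 FPKM in all 6 libraries, and the dendritic cell gene Flt3 was listed at 0 in all 6. Others of the 12 were present in every library, with Zbtb46 at 1.55 to 6.65 FPKM and Cd68 at 3.76 to 6.96 FPKM. The summed FPKM of the 12 was 22.3 to 39.0 in Pdgfra-cre and 20.9 to 30.2 in floxed controls, with the lysozyme gene Lyz2 (9.32 to 28.8 FPKM) the most abundant. All 6 B cell markers were under 1 FPKM in every library. The sum of 8 T and NK cell markers was 1.30 to 1.86 FPKM in Pdgfra-cre and 0.86 to 2.07 FPKM in floxed controls. The part of such cells in the Cd80 and Cd86 values was not tested.

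The means of the adhesion genes Icam1 and Vcam1 differed in opposite directions, and neither gene passed the adjusted threshold. Icam1, the ligand of LFA-1, was 411, 555 and 390.0 FPKM in Pdgfra-cre libraries 13, 23 and 25, against 351, 349 and 288 FPKM in floxed controls 8, 9 and 43. Every Pdgfra-cre library was above every control. The means were 452 ± 90.1 FPKM in Pdgfra-cre and 329 ± 35.5 FPKM in floxed controls (SD, n = 3 each), with a log2 fold change of 0.44 ± 0.15 (SE; limma adjusted p = 0.312). A larger log2 fold change was found in 7.8% of all tested genes, and without Pdgfra-cre library 23 it was 0.29 (adjusted p = 0.539).

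Vcam1, the ligand of VLA-4, was 143, 177 and 130.5 FPKM in Pdgfra-cre libraries 13, 23 and 25, against 207, 210.2 and 152 FPKM in floxed controls 8, 9 and 43. Pdgfra-cre library 23 lay above floxed control 43, and the other 2 Pdgfra-cre libraries lay below every control. The means were 150.2 ± 24.0 FPKM in Pdgfra-cre and 189.7 ± 33.1 FPKM in floxed controls (SD, n = 3 each), with a log2 fold change of -0.33 ± 0.16 (SE; limma adjusted p = 0.515). Without Pdgfra-cre library 23 the log2 fold change of Vcam1 was -0.45. Neither Vcam1 nor Icosl then overlapped between the groups, both lower in Pdgfra-cre, so that 4 of the 5 genes were without overlap. With 1 library fewer that also held for more of all genes, 12.6% in each direction.

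Set against each other within a library, the 2 adhesion genes separated the genotypes without overlap. The Icam1 level divided by the Vcam1 level was 2.87, 3.14 and 2.99 in Pdgfra-cre libraries 13, 23 and 25, against 1.69, 1.66 and 1.90 in floxed controls 8, 9 and 43. The groups were far apart compared with their spread, and library 23 did not stand out. On the log2(FPKM + 1) scale the difference between the genes was 1.58 ± 0.066 in Pdgfra-cre and 0.80 ± 0.11 in floxed controls (SD, n = 3 each). The genotypes differed by 0.77, with a two-sided exact permutation p of 0.1, the smallest possible. A ratio within a library does not depend on scaling between libraries, and the difference lay between 0.74 and 0.84 when each library was left out in turn. It does not say which of the genes differed, and the pair was chosen with earlier results of these data known.

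**Figure D3:**
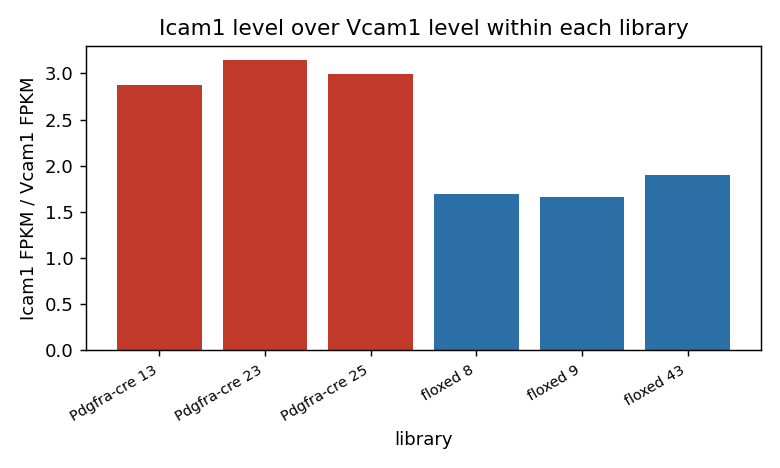
Icam1 FPKM divided by Vcam1 FPKM in each of the 6 libraries, Pdgfra-cre in red and floxed controls in blue, with 1 bar per library starting at 0. The 3 Pdgfra-cre libraries lie between 2.87 and 3.14 and the 3 floxed controls between 1.66 and 1.90.

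Icam1 lies on chromosome 9 from 21015985 to 21028817 and Vcam1 on chromosome 3 from 116109949 to 116129688 (mm10). Antisense genes overlap Cd274, Pdcd1lg2, Icam1 and Vcam1 in the GENCODE annotation, and the libraries did not keep the strand, so reads of those partners may be included.

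Markers of other cells were measured beside the adhesion genes, and none of them passed limma's test adjusted over all genes. The summed FPKM of 9 pericyte and smooth muscle markers was 142 to 333 in Pdgfra-cre and 535 to 564 in floxed controls, with Acta2, the smooth muscle actin gene, at 80.2 to 188 FPKM in Pdgfra-cre and 299 to 352 FPKM in floxed controls. Of 6 lymphoid stroma markers 4 were tested, 2 above 0 and 2 below, with a median log2 fold change of -0.14. The most abundant, Cxcl13, a B cell chemokine, was 426, 193 and 343 FPKM in Pdgfra-cre libraries 13, 23 and 25, against 719.8, 906 and 454 FPKM in floxed controls 8, 9 and 43. Ccl19, a T cell chemokine gene chosen after its values were seen, went the other way in its mean, with 53.6 ± 12.9 FPKM in Pdgfra-cre and 37.5 ± 40.6 FPKM in floxed controls (SD, n = 3 each), and overlapped. The sum of 5 mesothelial markers was 11.6 to 62.0 FPKM in Pdgfra-cre and 2.49 to 10.1 FPKM in floxed controls, highest in library 23, where the mesothelial gene Msln was 28.1 FPKM. The sum of 8 epithelial markers was 7.85 to 40.8 FPKM in Pdgfra-cre and 0.62 to 15.6 FPKM in floxed controls, with overlap, and it includes the keratin Krt19, which the mesothelial list also holds. Of 7 neutrophil markers the sum was 11.1 to 179 FPKM in Pdgfra-cre and 1.03 to 11 FPKM in floxed controls. Of 8 endothelial markers 6 were under 1 FPKM in every library and Cdh5 was listed at 0 in all, while Tek was 27.1 to 41.5 FPKM. The part of smooth muscle, mesothelial or other cells in the Icam1 and Vcam1 levels was not tested.

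The 5 tested genes did not all vary together. Cd274, Cd40 and Icam1 shared both their highest library, Pdgfra-cre 23, and their lowest, floxed control 43. Over the 6 libraries Pearson's r of log2(FPKM + 1) was 0.96 between Cd274 and Icam1, 0.88 between Cd40 and Icam1 and 0.82 between Cd274 and Cd40. Vcam1 had its highest value in floxed control 9 and its lowest in Pdgfra-cre 25, and r was -0.03 with Icam1 and -0.08 with Cd274. Icosl was highest in floxed control 43 and lowest in Pdgfra-cre 13, with r of -0.73 with Cd40. These values describe 6 points that share genotype and library 23, and they are given without a test.

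**Figure D4:**
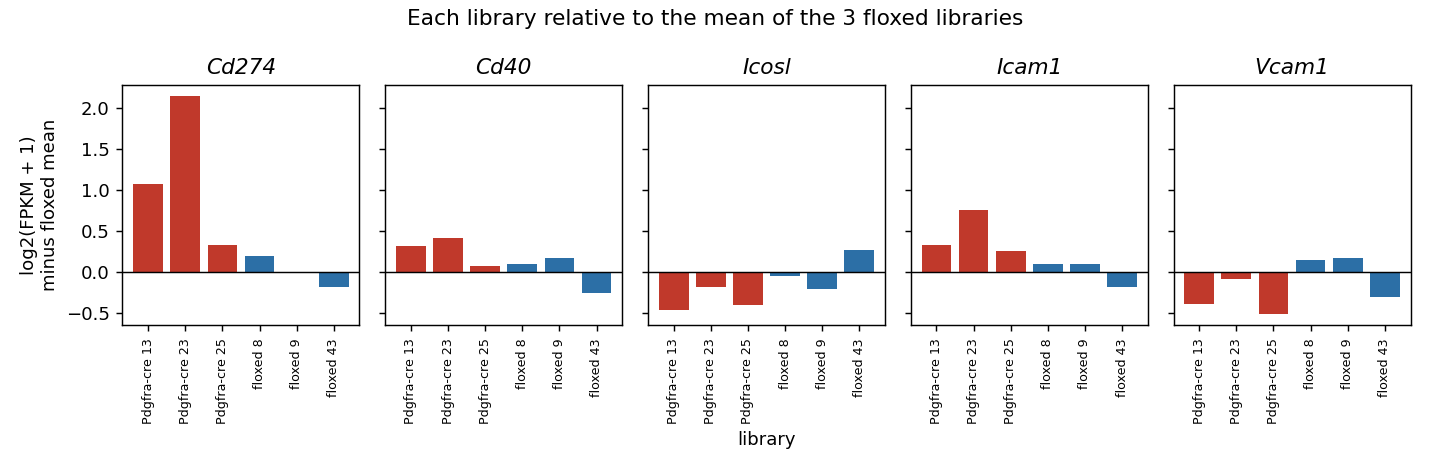
Log2(FPKM + 1) of each tested gene minus the mean of the 3 floxed controls, 1 bar per library, Pdgfra-cre in red and floxed controls in blue. Cd274, Cd40 and Icam1 are highest in Pdgfra-cre library 23 and lowest in floxed control 43, while all 3 Pdgfra-cre bars of Icosl and Vcam1 lie below 0.

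The genes most like each of these were sought among 7875 tested genes averaging 5 FPKM or more, by Pearson's r over the 6 libraries. Nearest to Cd274 were Zfp263 (r = 0.997) and the interferon-inducible GTPase genes Iigp1 and Gbp2 (0.995 each). Iigp1 was 274, 1115 and 147 FPKM in Pdgfra-cre libraries 13, 23 and 25, against 107, 72.7 and 69.1 FPKM in floxed controls 8, 9 and 43. Nearest to Cd40 were the acute phase gene Saa3 (0.995), the neutrophil growth factor gene Csf3 (0.992) and the ferritin gene Ftl1 (0.992). Nearest to Icam1 was the C1 inhibitor gene Serping1 (0.993). Icosl was most like the homeobox gene Hoxa11 (0.991), Ispd (0.989) and the mesenchymal transcription factor gene Foxf1 (0.988), and Vcam1 most like Dph1 and Acat2 (0.987 each) and Nup35 (0.984). Each was picked as the highest of 7875 correlations over 6 points, so the values are a description.

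Factors that act on these genes were followed as a list of 21, of which 17 were tested, with 0 passing in either direction, 12 log2 fold changes above 0 and 5 below, and a median of 0.11. Irf1, the factor through which interferon gamma acts on Cd274, was 454, 722 and 344 FPKM in Pdgfra-cre libraries 13, 23 and 25, against 318, 253 and 342 FPKM in floxed controls 8, 9 and 43 (log2 fold change 0.67 ± 0.24 SE; limma adjusted p = 0.332). The groups did not overlap and the highest value was in library 23, as for Cd274, but Pdgfra-cre library 25 was barely above floxed control 43. Nfkb2 was 23.3 ± 4.49 FPKM in Pdgfra-cre and 16.6 ± 4.19 FPKM in floxed controls (SD, n = 3 each; limma adjusted p = 0.441). Traf3, an adaptor that restrains CD40 signaling, was 3.74 ± 0.551 FPKM in Pdgfra-cre and 5.47 ± 1.19 FPKM in floxed controls (limma adjusted p = 0.53). Without Pdgfra-cre library 23 the median of the list was 0.049.

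Among 19 other checkpoint ligands 14 were tested and 0 passed, with 11 log2 fold changes above 0, 3 below and a median of 0.094. Cd47, which signals to phagocytes not to engulf the cell, was 336 ± 33.0 FPKM in Pdgfra-cre and 267 ± 22.4 FPKM in floxed controls (SD, n = 3 each), without overlap (limma adjusted p = 0.332). Nectin3, listed under its older symbol Pvrl3, was 9.85, 24.6 and 18.7 FPKM in Pdgfra-cre libraries 13, 23 and 25, against 9.12, 6.45 and 9.80 FPKM in floxed controls 8, 9 and 43 (limma adjusted p = 0.293). The groups did not overlap, with Pdgfra-cre library 13 barely above floxed control 43. The ectoenzymes of adenosine production had lower means in Pdgfra-cre, with Entpd1 (CD39) at 14.4 ± 4.01 FPKM in Pdgfra-cre and 21.4 ± 3.52 FPKM in floxed controls and Nt5e (CD73) at 1.65 ± 1.05 and 3.53 ± 0.955 FPKM in the same order (limma adjusted p = 0.369 and 0.373). Without library 23 the list had 8 above 0, 6 below and a median of 0.071.

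Of 14 other costimulatory ligands 5 were tested and 0 passed, with a median log2 fold change of -0.15 that was 0.17 without Pdgfra-cre library 23. Tnfsf8, the CD30 ligand gene, was 1.66, 1.63 and 2.19 FPKM in Pdgfra-cre libraries 13, 23 and 25, against 0.155, 0.759 and 0.0522 FPKM in floxed controls 8, 9 and 43 (limma adjusted p = 0.199). It met the filter only through the Pdgfra-cre libraries, which favors a difference in that direction. Tnfsf13b, which encodes the B cell survival factor BAFF, was 82.8 ± 20.2 FPKM in Pdgfra-cre and 102 ± 11.8 FPKM in floxed controls (SD, n = 3 each; limma adjusted p = 0.566). Tnfsf13, which encodes APRIL, was 1.01 ± 0.671 FPKM in Pdgfra-cre and 2.48 ± 2.18 FPKM in floxed controls, and the NKG2D ligand gene Raet1d was 1.75 ± 1.83 and 1.58 ± 0.516 FPKM in the same order.

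Other leukocyte adhesion molecules were 17 genes with 12 tested, 0 passing, 6 above 0 and 6 below. Their median log2 fold change was 0.00064, and 0.045 without Pdgfra-cre library 23. With that library left out, 1 was higher and 4 were lower without overlap, where 12.6% of all genes were in each direction. Among them the immunoglobulin superfamily genes Ncam1, Mcam and Esam were without overlap and lower in Pdgfra-cre, as 8.29% of all genes were. Vcam1 was below every control in 2 of 3 Pdgfra-cre libraries. Ncam1 was 14.3 ± 6.83 FPKM in Pdgfra-cre and 30.3 ± 9.13 FPKM in floxed controls, Mcam, also a pericyte marker, 2.35 ± 1.29 and 5.07 ± 0.418 FPKM, and Esam 5.45 ± 0.894 and 10.4 ± 2.1 FPKM in the same order (SD, n = 3 each; limma adjusted p = 0.246, 0.304 and 0.199). The chemokine Cx3cl1, which also tethers leukocytes, was 10.4 ± 5.39 FPKM in Pdgfra-cre and 6.95 ± 2.17 FPKM in floxed controls (limma adjusted p = 0.698).

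**Figure D5:**
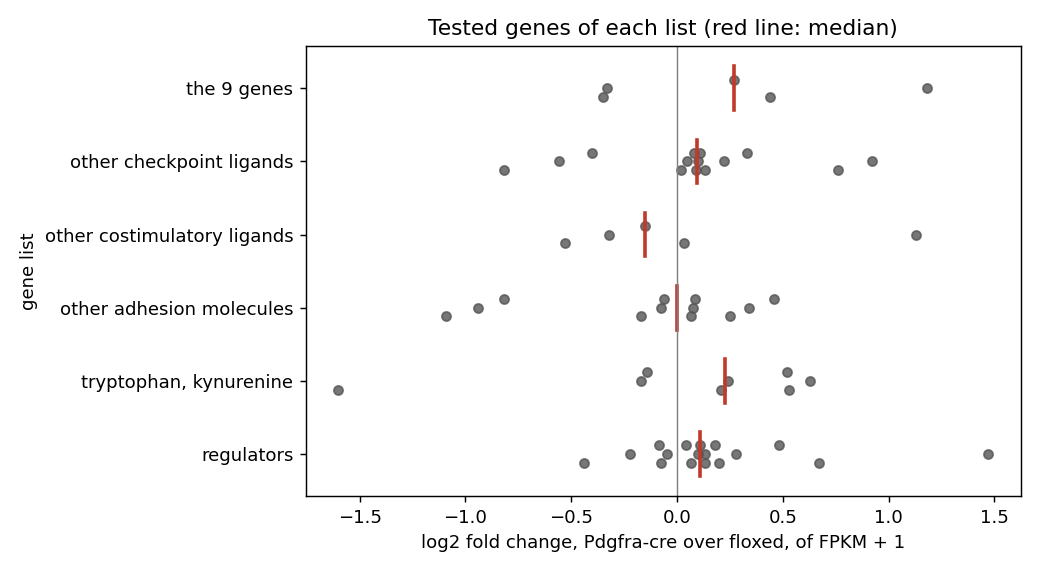
Log2 fold change of FPKM + 1, Pdgfra-cre over floxed control, of each tested gene (grey point) of the 9 genes and of 5 related lists, with the median as a red line. Medians lie between -0.15 and 0.27, and no gene shown passed the adjusted threshold.

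Levels in the rest of the tryptophan pathway varied widely. Of 17 genes 8 were under 1 FPKM in every library, 8 were tested and 0 passed, with a median log2 fold change of 0.23, and 0.13 without Pdgfra-cre library 23. The most abundant were Tiparp, an Ahr target, at 57.3 to 76.8 FPKM over the 6 libraries, and the tryptophan tRNA ligase gene Wars, at 23.3 to 45.7 FPKM, both named after their values were seen. Ahr, the receptor for kynurenine and other tryptophan products, was 0.339, 1.74 and 1.32 FPKM in Pdgfra-cre libraries 13, 23 and 25, against 5.68, 2.64 and 8.73 FPKM in floxed controls 8, 9 and 43, without overlap (log2 fold change -1.60 ± 0.40 SE; limma adjusted p = 0.198). Qprt, which makes a precursor of NAD from quinolinate, was 7.42 ± 0.80 FPKM in Pdgfra-cre and 4.47 ± 0.741 FPKM in floxed controls (SD, n = 3 each; limma adjusted p = 0.28). Kyat1, listed as Ccbl1, was 4.65 ± 0.996 FPKM in Pdgfra-cre and 2.98 ± 0.907 FPKM in floxed controls (limma adjusted p = 0.516). The Ahr targets differed in direction, and of those tested none passed. Cyp1b1 was 18.3 ± 6.71 FPKM in Pdgfra-cre and 12.5 ± 4.76 FPKM in floxed controls, with overlap (limma adjusted p = 0.615). Tiparp was 64.6 ± 6.32 FPKM in Pdgfra-cre and 71.3 ± 4.97 FPKM in floxed controls, with overlap (limma adjusted p = 0.751). Ahrr, under the filter and also named after its values were seen, was listed at 0 in all 3 Pdgfra-cre libraries and at 0.578, 0.392 and 0.887 FPKM in floxed controls 8, 9 and 43.

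The receptors that T cells use to read these molecules were mostly near 0. Of 13 counter-receptor genes 9 were under 1 FPKM in every library, 2 were tested and 0 passed, and Pdcd1, which encodes PD-1, was listed at 0 in all 6. The integrin chain Itgb1, which stromal cells also use, was 305 ± 21.8 FPKM in Pdgfra-cre and 348 ± 11.9 FPKM in floxed controls (SD, n = 3 each; limma adjusted p = 0.566). Cd28 was 0.205, 0.729 and 1.32 FPKM in Pdgfra-cre libraries 13, 23 and 25, against 1.35, 1.29 and 3.6 FPKM in floxed controls 8, 9 and 43 (limma adjusted p = 0.482).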

How the data were processed

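The values were gene-level FPKM deposited by the authors, 1 table per library and 1 value per gene symbol, per the file headers. Per the labels' protocols, total RNA was turned into full-length cDNA and libraries were made by tagmentation, a kit that leaves the strand unknown. The submitters' processing notes name TopHat2 2.1.1, Bowtie2 2.2.8, SAMtools 0.1.18, Cuffdiff 2.2.1 and build mm10. The authors' annotation, their options and the number of reads are not given in the sources used here.

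FPKM values are not counts, so limma 3.58.1 in R 4.3.3 was run on log2(FPKM + 1) with a variance trend, for genes reaching 1 FPKM in 3 or more libraries, with Benjamini-Hochberg adjustment over all genes. Fold changes on this scale understate differences of low genes. Genes under the filter and the ratios of Icam1 to Vcam1 and of Cd274 to Pdcd1lg2 had exact permutation tests over the 6 libraries. The test of the Cd274 to Pdcd1lg2 ratio is left out. The procedure was checked on simulated data. Depth was estimated from FPKM times length in genes with 1 transcript of 1000 to 8000 bases, taking the first peak of low values between 0.08 and 0.16. Fragment numbers use the longest transcript in GENCODE M21 and are rough. All 9 genes matched that annotation. They, the gene lists and the tests were chosen with earlier results of these data known. Named beside the 9 were up to 4 genes per list with the lowest p, the most abundant marker per cell type and the 3 most alike genes. Some genes and a motif that these rules name are not reported here. Flt3, Zbtb46, Cd68, Cdh5, Pdcd1, Ccl19, Tiparp, Wars and Ahrr were chosen after their values were seen. Alternatives were a pseudocount of 0.1, no filter or 5 FPKM, median-of-ratios scaling, rescaling to TPM, no variance trend, array weights and leaving out each library.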

Additional observations from a re-analysis of the deposited data

How the results depend on the processing

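Under 13 alternatives, 7 of other settings and 6 that left out 1 library each and filtered the rest anew, none of the 5 tested genes passed, and no log2 fold change of the 9 genes turned its direction where it was computed. For the 4 genes under the filter that was 9 alternatives for Pdcd1lg2 and Ido1 and 10 for Cd80 and Cd86, since the 5 FPKM filter, the fit with no variance trend and array weights gave them no value. Cd274 ranged from 0.70 to 1.61, Icam1 from 0.29 to 0.54, Cd40 from 0.14 to 0.37, Icosl from -0.46 to -0.22 and Vcam1 from -0.48 to -0.24. Cd274 met the 5 FPKM filter only through the Pdgfra-cre libraries, which favors a difference in that direction, so that alternative is no separate support. The count over all genes was 0 in every fit with 6 libraries and ranged from 0 to 31 when 1 was left out (2 without floxed control 43, 3 without Pdgfra-cre 13, 31 without Pdgfra-cre 25), for which the cause was not tested. Without Pdgfra-cre library 23, an alternative chosen after seeing the data, 4 of the 5 genes were without overlap in place of 2, with fewer libraries to overlap. The share of all genes without overlap rose as well, from 8.07% to 12.6% for higher and from 8.29% to 12.6% for lower in Pdgfra-cre. The log2 ratio of Icam1 to Vcam1 differed by 0.74 to 0.84 and that of Cd274 to Pdcd1lg2, which the pseudocount sets, by 0.78 to 1.83. Pdcd1lg2 without floxed control 9 and Ido1 without Pdgfra-cre 25 were at 0 throughout and gave no value. No paired analysis was possible because the mouse numbers of the groups share none. With 3 libraries a group, a p from permutation cannot go below 0.1, and Cd80, Cd86, Ido1 and Pdcd1lg2 are limited by depth.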
